A study of Mus musculus with 4 samples.

Results

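The genes described here are 10 liver genes of hepcidin and iron handling: Hamp, Hamp2, Tfrc, Tfr2, Trf, Fth1, Ftl1, Slc40a1, Slc39a14 and Cp. They were taken by symbol from a read count table of 35275 genes, in which each matched 1 row. The table holds 4 liver libraries, each made from the pooled tissue of 4 mice, so 16 female mice aged 26 weeks in all. The labels give strain AKR/J with the Apoa2c congenic genotype for all 4 libraries, whereas the study's methods name R1.P1-Apoa2c, a congenic on a SAMR1 background. The Apoa2c allele encodes an amyloidogenic apolipoprotein A-II, and every group carried it, the vehicle groups included. Mice of the fibril groups received 1 μg of AApoAII amyloid fibrils intravenously, which seeds systemic AApoAII amyloidosis, and mice of the vehicle groups received saline. Within each, mice were sedentary or ran interval training (IT) on a treadmill for 16 weeks, which gives vehicle sedentary (VS), vehicle IT (VI), fibril sedentary (FS) and fibril IT (FI).

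Hepcidin, the peptide encoded by Hamp, is made by hepatocytes and is the hormone that sets plasma iron. It binds ferroportin (Slc40a1), the cellular iron exporter, and drives its degradation, so that macrophages, enterocytes and hepatocytes release less iron. Its transcription is raised by BMP-SMAD signalling, which follows body iron, and by IL6-STAT3 signalling in inflammation. Iron inside the cell acts on mRNAs through the iron regulatory proteins, which bind a hairpin called the iron-responsive element. When iron is low they block translation of mRNAs with the element in the 5′ UTR, such as those of ferritin, and stabilise transferrin receptor mRNA, which carries it in the 3′ UTR.

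The elements are shown because they split the genes by mode of control. A search of GENCODE M21 coding transcripts for a CAGTGN loop on a paired stem of 5 bases after an unpaired C found the pattern in 4 of the 10 genes, and in 294 of 21901 coding genes (1.34%). Each site is 27 bases in GRCm38, and capitals mark the loop.

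Fth1, 5′ UTR, chr19:9982733-9982759, plus strand: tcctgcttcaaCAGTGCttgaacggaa
Ftl1, 5′ UTR, chr7:45459780-45459806, minus strand: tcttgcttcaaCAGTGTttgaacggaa
Slc40a1, 5′ UTR, chr1:45925466-45925492, minus strand: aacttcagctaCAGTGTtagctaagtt
Tfrc, 3′ UTR, chr16:32631220-32631246, plus strand: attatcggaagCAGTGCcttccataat
Tfrc, 3′ UTR, chr16:32631711-32631737, plus strand: attatcgggaaCAGTGTttcccataat

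Tfrc held 4 such sites, of which the first and last are printed, while Fth1, Ftl1 and Slc40a1 held 1 each. A match describes the letters and does not show that a protein binds there.

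Hamp and Hamp2 are neighbouring copies on chromosome 7, both on the minus strand, at 30942371 to 30944017 and 30922372 to 30924181 in the mm10 coordinates of the table. Their stretches from 150 to 31 bases before the RefSeq start site (GRCm38.p6) are shown because the log2 ratios of these genes with fibrils had opposite signs. Capitals mark a STAT site (TTCNNNGAA) and, in Hamp, the letters GGCGCC of a BMP-responsive element.

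Hamp, chr7:30944060-30944179, minus strand: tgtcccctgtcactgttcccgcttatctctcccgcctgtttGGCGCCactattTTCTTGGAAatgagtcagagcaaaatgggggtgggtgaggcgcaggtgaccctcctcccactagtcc
Hamp2, chr7:30924212-30924331, minus strand: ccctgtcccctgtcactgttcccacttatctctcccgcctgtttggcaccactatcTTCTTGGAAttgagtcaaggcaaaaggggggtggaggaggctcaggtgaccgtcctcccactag

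Both stretches held the STAT letters, at positions -97 to -89 from the start site in Hamp and -94 to -86 in Hamp2. Only Hamp of these 2 held GGCGCC, with the substitution G45A from Hamp to Hamp2 inside it, counted from 1 at the 5′ end of the printed Hamp stretch. Among 32851 promoter windows of 300 bases searched on both strands, 8.30% held the STAT letters and 11.9% held GGCGCC. The 300-base windows of Hamp and Hamp2 were identical at 276 of 303 aligned positions (91.1%). Their longest coding transcripts matched at 388 of 437 (88.8%), with a longest shared run of 87 bases. Reads inside such runs fit both copies, and whether they were counted is not stated in the sources used. The levels of both genes and the split between them carry that uncertainty.

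The libraries held 23442935 (VS), 24524287 (VI), 28814802 (FS) and 24801185 (FI) counts, and the 10 genes took 0.873% to 1.04% of them. Levels below are CPM (counts scaled to a common library size) after TMM scaling, and levels compared between genes are the authors' FPKM, which divide by gene length. Intervals are exact binomial 95% intervals, which cover counting error only, since each group is 1 library. For that reason no single comparison of 2 libraries has a test. Where both libraries of 1 kind stand above both of the other, that describes 4 values only. The share of all genes ordered in that way was not counted. A test was had only from edgeR's quasi-likelihood fit of an additive model (amyloidosis plus IT, all 4 libraries, 11760 genes), with Benjamini-Hochberg adjustment over all genes and a threshold of 0.05. It has 1 residual degree of freedom, and its error is the departure of pools from additivity, not the spread between mice. Its amyloidosis term marks fibril injection, given to both FS and FI. The paper reports much less liver amyloid in trained than in sedentary fibril mice, so the amyloid load of FS and FI was not the same. FI versus FS joins training with a lower load, and these cannot be told apart here. Bulk liver cannot separate fewer cells of a type from less RNA per cell.

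Cell type markers were read in the same libraries. Summed hepatocyte markers ranged from 156531 to 175559 CPM, and sinusoidal endothelial markers from 204 to 243 CPM. Such sums weigh abundant markers most. Of 8 hepatocyte markers, 2 were more than 2-fold higher in VI than VS (1.54% of all genes). In FS versus VS and FI versus VI it was 1 each (3.6% and 2.59%). Of 8 endothelial markers, 6 were lower in FS than VS and 4 in FI than VI, beside 48.0% and 48.7% of all genes not higher. In each of these, 1 was more than 2-fold higher. Kupffer cell markers, of the macrophages that recycle red cell iron, summed to 304.5 (VS), 368.5 (VI), 469.6 (FS) and 468.8 (FI) CPM. All 10 were higher in FS than VS, in FI than VI and in VI than VS, beside 52.0%, 51.3% and 50.7% of all genes. In FI versus FS 5 of 10 were higher, beside 50.2%. Erythroid markers summed to 345, 274, 244 and 332 CPM in the same order, nearly all of it Hba-a1 and Hbb-bs, with Hba-a2 and Epb42 at 0 in all libraries. Neutrophil markers summed to 2.88 and 3.57 CPM in the vehicle libraries, against 18.9 in FS and 14.1 in FI. Skeletal muscle markers stood at 78.5 CPM in VS and 10.2 in VI, against 1.12 and 1.07 in FS and FI, with Acta1 and Mb leading. Pancreas markers summed to 12.8 to 23.2 CPM, most of it Cela1, with 7 of 10 at 0. The part of these cells in the values below was not tested. FI versus VI and FI versus FS leave out VS, the library with most skeletal muscle RNA, and their ratios stand beside the others for each gene.

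**Figure D1:**
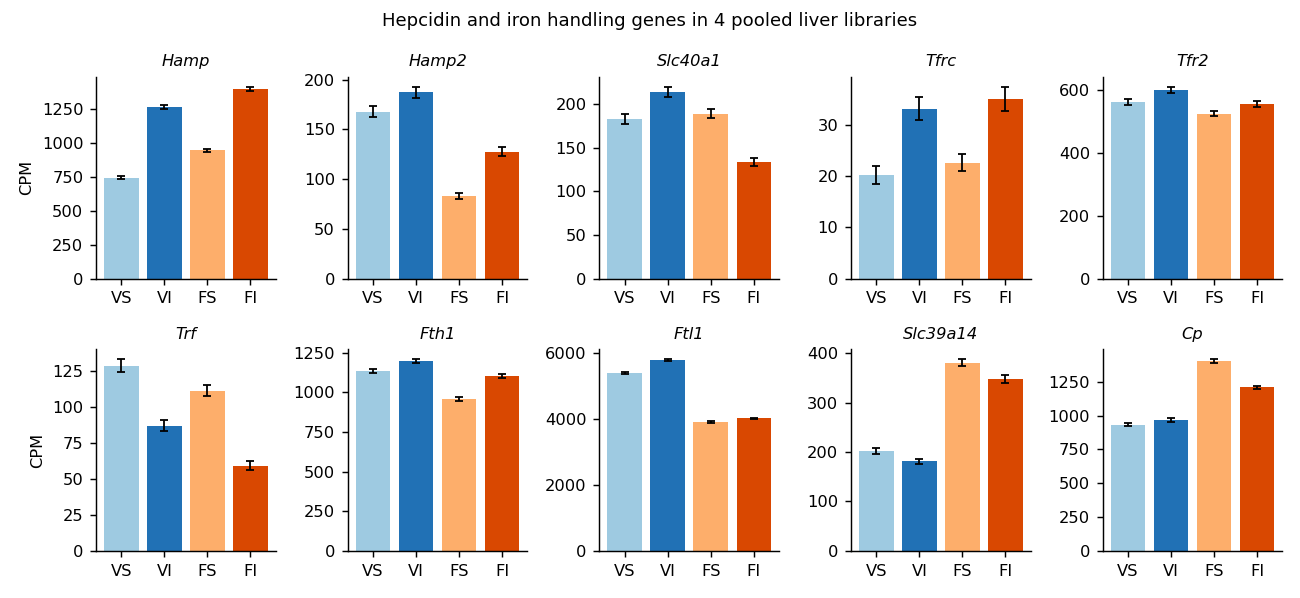
CPM (y axes, linear and from 0) of each gene in VS, VI, FS and FI, 1 bar per pooled library of 4 mice, with error bars for the 95% counting interval. Hamp and Tfrc are higher in both IT libraries, Slc39a14 and Cp in both fibril libraries, and Trf is lowest in FI at 59.1 CPM.

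Hamp was the 22nd to 30th most abundant gene by FPKM. It measured 740 (VS), 1261 (VI), 944.5 (FS) and 1397 (FI) CPM, so both IT libraries stood above both sedentary ones. The log2 ratio with IT was 0.77 (0.74 to 0.79) in vehicle livers, a 1.70-fold difference, and 0.56 (0.54 to 0.59) in fibril livers, or 1.48-fold. With fibrils it was 0.35 (0.32 to 0.38) in sedentary and 0.15 (0.13 to 0.17) in trained livers. In the additive model the log2 change with IT was 0.67 ± 0.136 (SE), and it missed the threshold with an adjusted p of 0.0687 by edgeR's quasi-likelihood test. That p ranged from 0.000315 to 0.0853 over 8 settings (the fit above and 7 others of scaling, filter or tool, all with both factors), below the threshold in 5 of them. A ninth fit, with 1 factor alone in the model, leaves the other factor in the error and is given apart. The change with amyloidosis was 0.25 ± 0.135, with an edgeR adjusted p of 0.335.

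Hamp2, the second mouse hepcidin gene, was ordered differently. It measured 168 (VS), 187 (VI), 82.9 (FS) and 128 (FI) CPM, so both fibril libraries lay below both vehicle libraries. The log2 ratio was -1.02 (-1.09 to -0.94) for FS versus VS and -0.55 (-0.62 to -0.49) for FI versus VI. Hamp2 fell with amyloidosis in the additive model (log2 change -0.79 ± 0.139, edgeR adjusted p = 0.0222, 5.28e-08 to 0.0307 over 8 settings and below the threshold in all 8). With amyloidosis alone in the model the call was lost (edgeR adjusted p = 0.216). With IT the log2 ratios were 0.16 (0.10 to 0.22) and 0.62 (0.54 to 0.70), and the edgeR adjusted p was 0.262.

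The share of Hamp2 in the counts of both hepcidin genes was 18.5% in VS (exact 95% interval 18.0 to 19.0), 12.9% in VI (12.6 to 13.3), 8.07% in FS (7.77 to 8.38) and 8.37% in FI (8.09 to 8.66). The intervals of FS and FI overlap, while those of VS and VI stand apart from them and from each other. Per length, Hamp exceeded Hamp2 4.92-fold in VS and 7.501-fold in VI, against 12.7-fold in FS and 12.2-fold in FI.

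**Figure D2:**
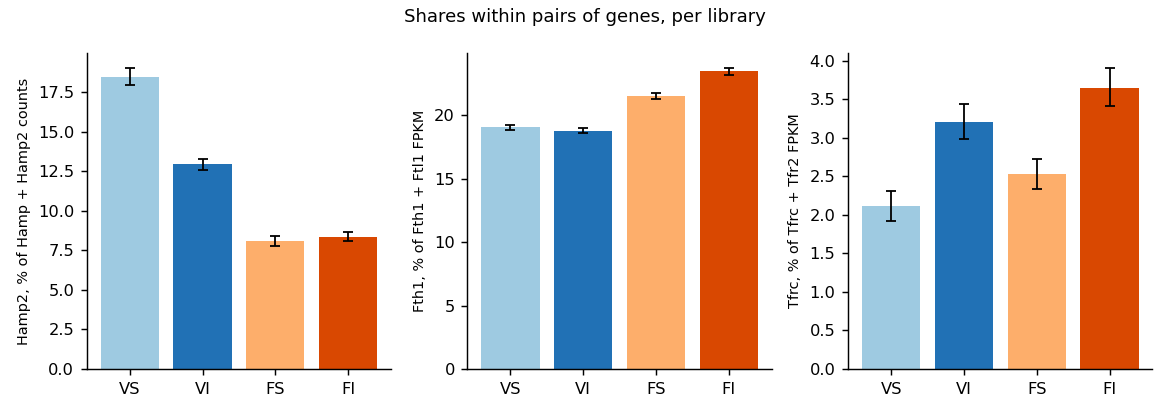
Share of Hamp2 in the counts of both hepcidin genes, of Fth1 in the FPKM of both ferritin genes, and of Tfrc in the FPKM of both transferrin receptor genes (percent, y axes from 0), per library, with 95% counting intervals. The Hamp2 share is 18.5% in VS and near 8% in both fibril libraries, and the Tfrc share is higher in VI and FI than in VS and FS.

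Slc40a1, which encodes ferroportin, the receptor and target of hepcidin, measured 183 (VS), 214 (VI), 189 (FS) and 134 (FI) CPM. FI stood below the other libraries, and the interval of the FS to VS ratio included 0 (log2 0.05, -0.01 to 0.10). FI versus VI gave a log2 ratio of -0.68 (-0.74 to -0.62) and FI versus FS -0.50 (-0.56 to -0.44), while VI versus VS gave 0.23 (0.17 to 0.28). The effect of fibrils thus differed by -0.73 (-0.81 to -0.64, counting error only) between trained and sedentary livers, the widest gap of the 10 genes. The additive model has no term for such a gap and gave edgeR adjusted p-values of 0.357 for amyloidosis and 0.786 for IT.

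Tfrc encodes transferrin receptor 1, which takes up transferrin-bound iron. It was the least abundant of the 10 genes by FPKM, at 4.15 to 6.98. Its level was 20.2 (VS), 33.2 (VI), 22.6 (FS) and 35.0 (FI) CPM, so both IT libraries exceeded both sedentary ones. The log2 ratio with IT was 0.72 (0.55 to 0.88) in vehicle and 0.63 (0.48 to 0.78) in fibril livers. With fibrils the interval included 0 in sedentary (0.17, -0.01 to 0.34) and trained livers (0.08, -0.06 to 0.22), so FS could not be told from VS, nor FI from VI, at this depth. Tfrc rose with IT in the additive model (log2 change 0.67 ± 0.121, edgeR adjusted p = 0.0465), but p ranged from 8.91e-05 to 0.0706 over 8 settings and was below the threshold in 6. With IT alone in the model it was 0.621.

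Tfr2 encodes transferrin receptor 2, an iron sensor of hepatocytes that acts upstream of hepcidin. It measured 560 (VS), 599 (VI), 523 (FS) and 554 (FI) CPM, the narrowest span of the 10 genes at 1.15-fold. Its edgeR adjusted p was 0.668 for amyloidosis and 0.799 for IT. Per length, Tfr2 exceeded Tfrc by 46.4-fold (VS), 30.2-fold (VI), 38.6-fold (FS) and 26.4-fold (FI). Tfrc therefore made up 2.11% (1.92 to 2.31) of the FPKM of both receptors in VS and 3.205% (2.99 to 3.43) in VI, against 2.52% (2.34 to 2.72) in FS and 3.65% (3.41 to 3.90) in FI.

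Trf encodes transferrin, the plasma carrier that delivers iron to these receptors. It measured 128.5 (VS), 86.8 (VI), 111 (FS) and 59.1 (FI) CPM, with both IT libraries below both sedentary ones. By FPKM it was the 1148th (VS), 1527th (VI), 1224th (FS) and 1968th (FI) most abundant gene. The log2 ratio with IT was -0.57 (-0.65 to -0.49) in vehicle and -0.91 (-1.004 to -0.82) in fibril livers. Trf fell with IT (log2 change -0.74 ± 0.126, edgeR adjusted p = 0.0384, 5.72e-07 to 0.0539 over 8 settings and below the threshold in 7). With IT alone in the model the edgeR adjusted p was 0.898. With fibrils the log2 ratio was -0.21 (-0.28 to -0.14) in sedentary and -0.55 (-0.65 to -0.46) in trained livers, with an edgeR adjusted p of 0.135. In GENCODE M21, the overlapping gene Gm20425 on the same strand shares 63.5% of Trf exon bases and has 0 counts in every library. Whether reads in the shared exons went uncounted was not tested. The level of Trf, its rank and its change with IT carry that uncertainty and may rest on a part of the transferrin reads.

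**Figure D3:**
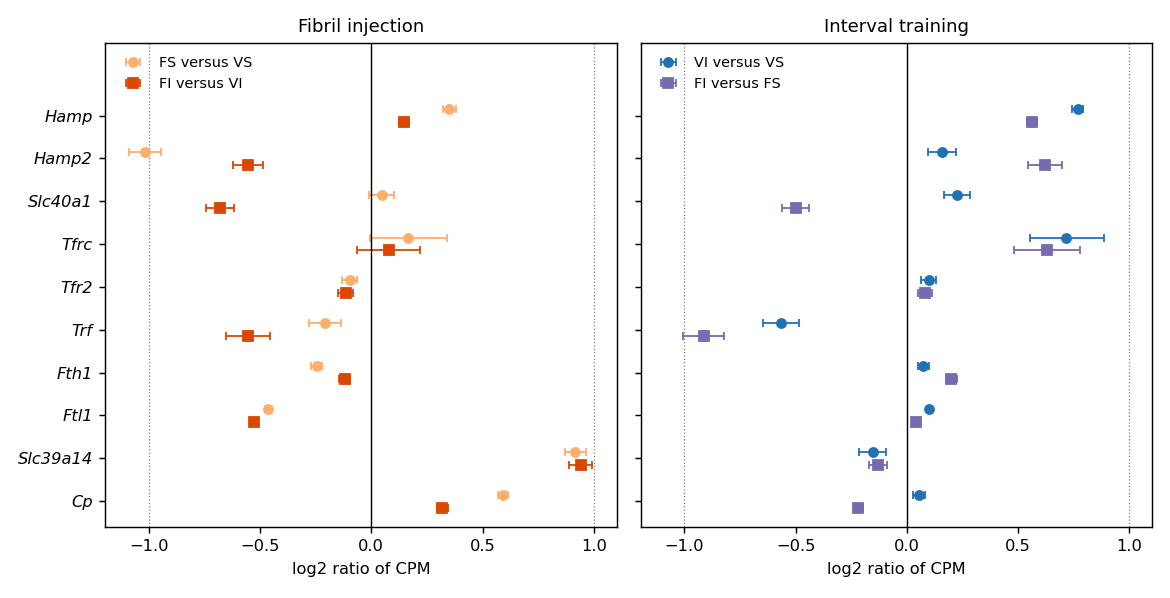
Log2 ratios of CPM (x axes) with fibrils (left, FS versus VS and FI versus VI) and with IT (right, VI versus VS and FI versus FS) for each gene, with 95% counting intervals and dotted lines at 2-fold. Slc39a14 sits near 0.9 in both fibril comparisons and Hamp2 at or left of -0.55, while Slc40a1 lies on opposite sides of 0 in the IT comparisons.

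The ferritin genes encode the heavy chain (Fth1), which oxidises iron, and the light chain (Ftl1), which aids its storage in the shared shell. Ftl1 was the 8th to 17th most abundant gene by FPKM. It measured 5391 (VS), 5779 (VI), 3901 (FS) and 4013 (FI) CPM, so the fibril libraries lay below the vehicle ones. The log2 ratio with fibrils was -0.47 (-0.48 to -0.46) in sedentary and -0.53 (-0.54 to -0.51) in trained livers. In the additive model this gave -0.50 ± 0.146 and an edgeR adjusted p of 0.103, past the threshold in 2 of 8 settings.

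Fth1 measured 1135 (VS), 1195 (VI), 958 (FS) and 1101 (FI) CPM. Its log2 ratio with fibrils was -0.24 (-0.27 to -0.22) in sedentary and -0.12 (-0.14 to -0.09) in trained livers, smaller than for Ftl1, with an edgeR adjusted p of 0.471. The Fth1 share of ferritin FPKM was accordingly 19.0% (18.8 to 19.3) in VS and 18.8% (18.6 to 19.0) in VI, against 21.5% (21.3 to 21.8) in FS and 23.5% (23.2 to 23.7) in FI. For IT the log2 ratios of both genes stayed between 0.04 and 0.20, and that of Ftl1 in fibril livers changed sign to -0.03 when libraries were scaled by total counts. The ferritin rows Ftl2, Fth-ps2 and Fthl17 held 0 to 6 counts per library, so few reads were assigned to these copies.

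Slc39a14 encodes ZIP14, a metal transporter that takes non-transferrin-bound iron, zinc and manganese into hepatocytes and is known to be induced in inflammation. It measured 202 (VS), 181 (VI), 381 (FS) and 348 (FI) CPM, so both fibril libraries stood above both vehicle ones. The log2 ratio with fibrils was 0.92 (0.87 to 0.97) in sedentary and 0.94 (0.89 to 0.99) in trained livers, or 1.89-fold and 1.92-fold. Slc39a14 rose with amyloidosis (log2 change 0.93 ± 0.117, edgeR adjusted p = 0.00840, 3.79e-10 to 0.0137 over 8 settings and below the threshold in all 8). With amyloidosis alone in the model the call was lost (edgeR adjusted p = 0.0758). The fibril effects in sedentary and trained livers differed by 0.02 (-0.05 to 0.09).

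Cp encodes ceruloplasmin, the copper ferroxidase of plasma that oxidises iron leaving cells and is a known acute phase protein. It measured 931 (VS), 968 (VI), 1403 (FS) and 1207 (FI) CPM. The log2 ratio with fibrils was 0.59 (0.57 to 0.62) in sedentary and 0.32 (0.29 to 0.34) in trained livers. Both fibril libraries lay above both vehicle libraries, and the additive change of 0.46 ± 0.139 had an edgeR adjusted p of 0.113, past the threshold in 1 of 8 settings. Exons of Hps3 on the opposite strand share 1.13% of Cp exon bases.

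Counted over all 10 genes, 0 were more than 2-fold higher in FS than VS, where 3.6% of 12180 genes were, and 1 was more than 2-fold lower (Hamp2), where 2.2% were. In FI versus VI 0 were past 2-fold, beside 2.59% of all genes higher and 1.95% lower. In VI versus VS 0 were past it, beside 1.54% higher and 1.9% lower, and in FI versus FS 0, beside 1.75% higher and 2.53% lower. In the additive model 1 of 10 rose with amyloidosis (Slc39a14, 2.64% of all genes) and 1 fell (Hamp2, 1.96%). With IT 1 rose (Tfrc, 0.672% of all genes) and 1 fell (Trf, 0.663%). At an unadjusted p under 0.05, 5 of 10 passed for amyloidosis, where 21.1% of all genes did, and 4 of 10 for IT, where 14.5% did. The median of highest over lowest CPM was 1.67 for the 10 genes, beside 1.39 (quartiles 1.23 to 1.70) for all 12180 genes. It was 1.34 (quartiles 1.21 to 1.64) for the 1438 genes that reached 100 CPM, which Tfrc did not.

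**Figure D4:**
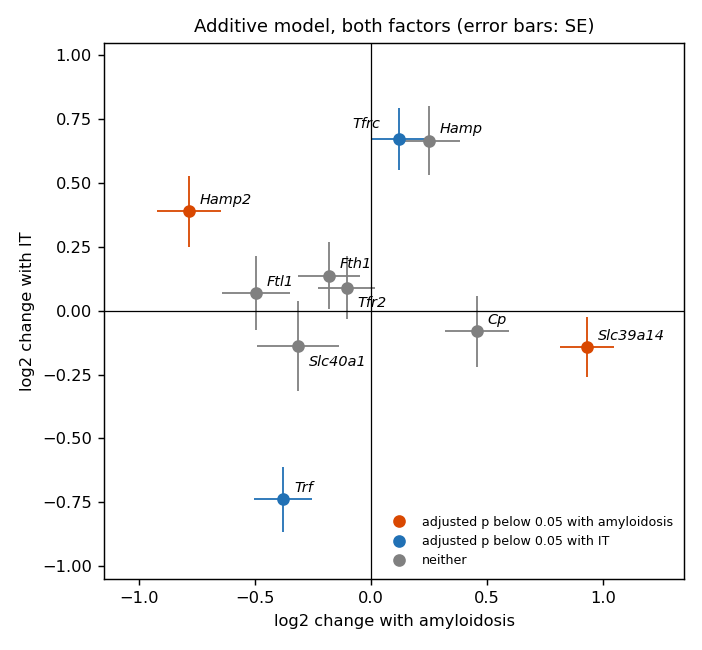
Log2 change with amyloidosis (x axis) and with IT (y axis) for each of the 10 genes in the additive edgeR model, with SE bars, coloured by which factor had an adjusted p below 0.05. Slc39a14 and Hamp2 lie at the 2 ends of the amyloidosis axis (0.93 and -0.79), and Trf, Tfrc and Hamp at the ends of the IT axis (-0.74, 0.67 and 0.67).

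Genes upstream of hepcidin were read from lists, and 4 values in a row are in the order VS, VI, FS, FI here and below. Of 21 BMP-SMAD genes fitted, edgeR called 1 for amyloidosis, in the lower direction (1.96% of all genes), and 0 for IT. At an unadjusted p under 0.05, 3 of 21 passed for each factor, no more than the 21.1% (amyloidosis) and 14.5% (IT) of all genes. Hjv, the hemojuvelin BMP co-receptor that promotes hepcidin transcription, was the one that fell, from 71.6 and 68.3 CPM in VS and VI to 37.6 in FS and 41.7 in FI (log2 change -0.82 ± 0.115, edgeR adjusted p = 0.0116). Tmprss6, the protease that cleaves hemojuvelin, measured 709, 736, 583 and 601 CPM, with an edgeR adjusted p of 0.236. Id1, a BMP-SMAD target gene, measured 24.2, 18.4, 20.02 and 14.6 CPM. Fgl1, a liver-secreted protein gene of the list named for its size after the values were seen, measured 545, 1331, 1798 and 1526 CPM. It was the one list gene past 2-fold in FS versus VS (log2 1.72) and VI versus VS (1.29), against 0.20 in FI versus VI, and its edgeR adjusted p was 0.250 for amyloidosis and 0.610 for IT. The ligand gene Bmp6 measured 3.73, 4.72, 3.32 and 4.22 CPM, from 88 to 115 counts per library. Its log2 ratio with IT was 0.34 in vehicle and 0.34 in fibril livers, with an edgeR adjusted p of 0.527 for IT. Erfe, the erythroid suppressor of hepcidin, had 0 counts in all libraries.

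Of 12 IL6-STAT3 genes fitted, 1 rose with amyloidosis and 1 rose with IT, beside 2.64% and 0.672% of all genes. An unadjusted edgeR p under 0.05 was reached by 6 of 12 for amyloidosis and 3 of 12 for IT, beside 21.1% and 14.5%. Stat3, the transcription factor of this branch, measured 134 and 135 CPM in VS and VI against 210 in FS and 184 in FI (log2 change 0.55 ± 0.117, edgeR adjusted p = 0.0435). Il6ra, the receptor chain for IL6, measured 68.3, 83.9, 87.9 and 115 CPM with an edgeR adjusted p of 0.0803. Inhbb, the activin B subunit, was counted in this list although it is not itself a part of IL6-STAT3 signalling. It measured 4.19, 2.46, 6.61 and 11.6 CPM with an edgeR adjusted p of 0.0800. Socs3, named after its values were seen, measured 9.53, 12.2, 27.4 and 15.3 CPM. Its log2 ratio was 1.52 in FS versus VS and 0.33 in FI versus VI, with an edgeR adjusted p of 0.110 for amyloidosis. The list median log2 ratio was 0.25 in FS versus VS and 0.30 in FI versus VI, beside 0.02 and 0.01 for all genes.

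Within the iron regulatory protein and ferritin turnover list, 1 of 10 genes fitted rose with amyloidosis and 1 with IT, and it was Ncoa4 each time. The shares of all genes were 2.64% and 0.672%. An unadjusted edgeR p under 0.05 was reached by 4 of 10 for amyloidosis and 2 of 10 for IT, beside 21.1% and 14.5%. Ncoa4 encodes the receptor that carries ferritin to the lysosome, where its iron is released. It measured 43.8 (VS), 68.6 (VI), 69.5 (FS) and 126 (FI) CPM, highest where fibrils and IT were combined. Its log2 change was 0.77 ± 0.115 with amyloidosis (edgeR adjusted p = 0.0133) and 0.75 ± 0.115 with IT (edgeR adjusted p = 0.0304). Aco1, which encodes iron regulatory protein 1, measured 218, 211, 148 and 173 CPM (edgeR adjusted p 0.0973), and the iron chaperone gene Pcbp2 59.8, 65.5, 44.4 and 52.6 CPM (edgeR adjusted p 0.104).

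Of 13 genes for scavenging hemoglobin and heme, 2 rose and 1 fell with amyloidosis, beside 2.64% and 1.96% of all genes. For IT 0 were called, beside 0.672% higher and 0.663% lower. An unadjusted edgeR p under 0.05 was reached by 8 of 13 for amyloidosis and 3 of 13 for IT, beside 21.1% and 14.5%. Hp, haptoglobin, which binds free hemoglobin, measured 3489 (VS), 4386 (VI), 6100 (FS) and 8022 (FI) CPM (log2 change 0.84 ± 0.148, edgeR adjusted p = 0.0221). Cd163, the macrophage receptor for hemoglobin bound to haptoglobin, measured 9.02, 14.2, 22.9 and 32.3 CPM (log2 change 1.26 ± 0.136, edgeR adjusted p = 0.00527). Kupffer cell markers also summed higher in both fibril libraries than in the vehicle ones. Their sums in FS and FI were 469.6 and 468.8 CPM, while Cd163 was higher in FI than FS. The part of Kupffer cells in the Cd163 values was not tested. Hpx, hemopexin, which binds free heme, measured 3799, 5837, 8015 and 8355 CPM and missed the threshold (edgeR adjusted p = 0.0507).

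Of 9 genes for iron uptake, reduction and release, 2 rose with amyloidosis, beside 2.64% of all genes. An unadjusted edgeR p under 0.05 was reached by 3 of 9 for amyloidosis and 1 of 9 for IT, beside 21.1% and 14.5%. Lcn2, lipocalin 2, which binds bacterial siderophores and is a known acute phase gene, measured 6.35 (VS), 36.5 (VI), 367 (FS) and 549 (FI) CPM (log2 change 4.795 ± 0.586, edgeR adjusted p = 0.0444, up to 0.499 over 8 settings and below the threshold in 5). Lcn2 is also made by neutrophils, whose markers summed higher in both fibril libraries than in the vehicle ones. Those sums were 18.9 CPM in FS and 14.1 in FI, and only 3 of the 10 markers reached 1 CPM in any library. The part of neutrophils in the Lcn2 values was not tested. Steap4, a metalloreductase, measured 92.4, 55.0, 155 and 172 CPM (edgeR adjusted p = 0.0273), while Steap3, the reductase of the transferrin cycle, measured 14.9, 16.6, 12.2 and 10.3 CPM (edgeR adjusted p 0.132).

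Of 11 heme synthesis genes, 1 fell with amyloidosis, beside 1.96% of all genes. An unadjusted edgeR p under 0.05 was reached by 4 of 11 for amyloidosis and 4 of 11 for IT, beside 21.1% and 14.5%. Alad, the second enzyme of the pathway, measured 417 (VS), 275 (VI), 211 (FS) and 146 (FI) CPM (log2 change -0.95 ± 0.117, edgeR adjusted p = 0.00808). Uros measured 13.8, 7.55, 16.9 and 14.3 CPM and Alas2, the erythroid first enzyme, 17.6, 12.2, 11.04 and 9.63 CPM, neither past the threshold (edgeR adjusted p 0.115 and 0.116). In VI versus VS 10 of the 11 were lower, beside 49.3% of all genes not higher. The list median log2 ratio in VI versus VS was -0.32 beside 0.00 for all genes. In FI versus FS 8 of the 11 were lower, beside 49.8% of all genes not higher, with a list median of only -0.07. With fibrils 8 were lower in FS than VS and 6 in FI than VI, beside 48.0% and 48.7% of all genes not higher. The list medians there were -0.15 and -0.12.

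Of 16 genes of mitochondrial iron and iron-sulfur cluster assembly, 2 fell with amyloidosis, beside 1.96% of all genes. An unadjusted edgeR p under 0.05 was reached by 3 of 16 for amyloidosis and 0 of 16 for IT, beside 21.1% and 14.5%. Slc25a37, mitoferrin 1, an iron importer of mitochondria, measured 50.9, 44.4, 27.1 and 32.7 CPM (log2 change -0.67 ± 0.141, edgeR adjusted p = 0.0400). Fdx1, a ferredoxin, measured 90.5, 80.5, 61.6 and 58.1 CPM (log2 change -0.51 ± 0.108, edgeR adjusted p = 0.0414, below the threshold in 7 of 8 settings), and Glrx5 121, 114, 98.6 and 77.6 CPM (edgeR adjusted p 0.0922). Of the 16, 13 were lower in FS than VS and 15 in FI than VI, beside 48.0% and 48.7% of all genes not higher, with list medians of -0.14 and -0.09. In both IT comparisons 10 of the 16 were lower, beside 49.3% (VI versus VS) and 49.8% (FI versus FS) of all genes not higher. Of the calls named from these lists, those of Hjv, Stat3, Ncoa4, Hp, Cd163, Steap4, Alad and Slc25a37 were below the threshold in all 8 settings, but none of the list calls held with 1 factor alone in the model (edgeR adjusted p 0.0766 for Hjv to 0.898 for Ncoa4 with IT).

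**Figure D5:**
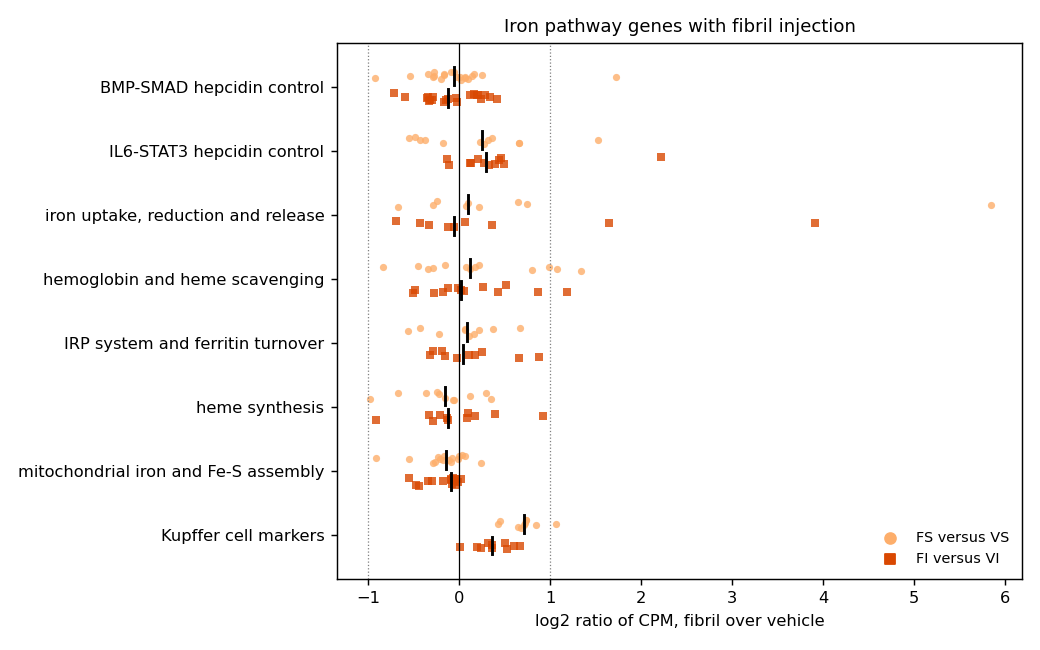
Log2 ratios of CPM with fibrils (x axis) for the genes of 7 iron pathway lists and for Kupffer cell markers, 1 point per gene, FS versus VS (circles) and FI versus VI (squares), with black bars at list medians and dotted lines at 2-fold. The medians of the iron lists lie between -0.15 and 0.30 and those of Kupffer cell markers at 0.72 and 0.37, and Lcn2 is the point far to the right.

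Genes whose profile over the 4 libraries lay nearest to a given iron gene were taken by Euclidean distance of centred log2 CPM among 8953 genes. For Hamp the 5 nearest were Nedd4l, Arl4a, Slc35g1, Fam179b and Tsr1, at distances of 0.04 to 0.11. For Tfrc they were Tsr1, Mex3c, Gpatch2l, Agpat6 and Fam179b, at 0.06 to 0.11, so Tsr1 and Fam179b stood in both sets. For Slc40a1 they were Syne1, Zfhx4, Id3, Fubp1 and Ube2e2, at 0.04 to 0.10. Id3, a BMP target, measured 42.5 (VS), 49.7 (VI), 44.6 (FS) and 33.0 (FI) CPM. With 4 points many profiles lie close by, and distance is a description only.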

How the data were processed

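Liver RNA was sequenced from 4 pools of 4 mice, 1 library per group. The authors deposited raw read counts per gene and FPKM, and the submitters' processing notes name fastp 0.23.2, STAR 2.5, HTSeq 0.6.1 and the mm10 build. The deposited FPKM equalled count over gene length and library total, so they share its composition bias. TMM scaling, log2 ratios (0.5 counts added) and exact conditional binomial intervals were computed on the counts of the 12180 genes with at least 1 CPM in 1 library. edgeR 4.0.16 (R 4.3.3) fitted the additive model to 11760 genes (1 CPM or more in 2 libraries) by its robust quasi-likelihood test with Benjamini-Hochberg adjustment. Depth was 23442935 to 28814802 counts, and 3 counts correspond to 0.102 to 0.127 CPM. Strandedness is not stated in the sources used.

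The 10 genes and all lists were chosen with earlier results of these data known. Named genes were the 10, up to 3 per pathway list with the largest smaller ratio of the same sign in both fibril comparisons and at least 5 CPM, and the 5 nearest profiles of Hamp, Tfrc and Slc40a1, passing over predicted genes. Bmp6, Erfe, Fgl1 and Socs3 among the lists were named after their values were seen. Older symbols were matched through reference tables, and 9 of 10 erythroid markers matched. Promoters came from RefSeq (GRCm38.p6), with windows for 7 of the 10 genes and none for Trf, Slc40a1 and Slc39a14. Alternatives were DESeq2 1.42.0, limma 3.58.1 (voom), other scalings and filters, each factor alone, the authors' FPKM and a 1.5-fold threshold. Scripts were tested on simulated data.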

Additional observations from a re-analysis of the deposited data

Results flagged for a closer look

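Slc40a1, the iron exporter gene, moved in opposite directions with IT in the vehicle and fibril livers: the log2 ratio was 0.23 for VI versus VS and -0.50 for FI versus FS. Cp, the plasma ferroxidase gene, did the same at a smaller size, with 0.055 for VI versus VS and -0.22 for FI versus FS. With 1 pooled library per group these differences were not tested across mice, and their intervals cover counting error only.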

How the results depend on the processing

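No paired analysis was possible because each group is 1 pooled library, and for the same reason no library could be left out of a comparison. The number of genes past 2-fold in FS versus VS went from 1 to 0 with total counts or the authors' FPKM (pseudocount 1 or 0.1) and to 3 at a 1.5-fold threshold (17.6% of all genes), which also gave 2 for FI versus VI (1702 of 12180 genes), 2 for VI versus VS (11.6%) and 3 for FI versus FS (13.5%). The calls for amyloidosis went from 2 to 5 without the filter on low counts (Cp, Ftl1 and Trf were added) and to 0 with that factor alone in the model, where 4 of 10 had an unadjusted p under 0.05 (13.7% of all genes). The calls for IT went from 2 to 0 at a filter of 5 CPM (4 of 10 at an unadjusted p under 0.05, 15.7% of all genes) and to 0 with IT alone (3 of 10, 5.47%). DESeq2 called 3 for amyloidosis (Ftl1 added) and 2 for IT, Trf and Hamp (adjusted p = 0.00374), without Tfrc (0.0706). Of all 11760 genes, DESeq2 called 470 for amyloidosis and 182 for IT. The causes were not tested. The FI versus FS ratio of Ftl1 changed from 0.04 to -0.030 with total counts and -0.030 with FPKM (pseudocount 1). Of all 11760 genes, 540 were called for amyloidosis and 157 for IT in the main fit. The counts were 772 and 274 with total counts, 747 and 241 with DESeq2 size factors, and 8 and 0 with the factor alone. Without the filter they were 1557 and 765 of 17849 genes, and at 5 CPM 406 and 91 of 8999. The largest shift among 160 recomputed log2 ratios was 0.15.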

Other observations

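Outside the rule for named genes, and chosen after their values were seen, the lists held 2 further calls. Blvrb, biliverdin reductase B, of the heme scavenging list, measured 104 (VS), 100.1 (VI), 58.0 (FS) and 71.5 (FI) CPM, and fell with amyloidosis (log2 change -0.66 ± 0.125, edgeR adjusted p = 0.0277). Il22ra1, a receptor chain for IL22, which also signals through STAT3 in hepatocytes, measured 0.974 (VS), 2.75 (VI), 1.15 (FS) and 3.89 (FI) CPM, and rose with IT (log2 change 1.63 ± 0.295, edgeR adjusted p = 0.0465, up to 0.109 over 7 settings and below the threshold in 6). It rests on 23 to 94 counts per library. Il6 itself had 0 to 9 counts per library, too few to compare.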
